A study of Mus musculus with 33 samples.

Results

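Bcan, Ncan, Vcan, Cspg4, Cspg5, Hapln1, Hapln2, Tnc and Tnr encode chondroitin sulfate proteoglycans, link proteins and tenascins of the extracellular matrix of the brain. The question was which cell lineage of the hippocampal neurogenic niche carries the transcripts of which of these 9 genes. They were chosen by symbol, and all 9 were found among the 18853 gene rows of the count files. The study sorted single cells of the mouse hippocampus after neurons had been depleted and sequenced them in plates by SORT-seq, which amplifies and counts the 3′ ends of polyadenylated transcripts and marks each molecule with a unique molecular identifier (UMI). Per the labels, the sorted cells were alive and negative for 2 antibodies, one against the neuronal glutamate receptor subunit GluR1 and one against Cd24, a surface protein carried by neuroblasts among other cells. A library of GFP+ hippocampal cells from NestinGFP mice (315 cells) and a library from mice older than 12 months (138 cells) were set beside 31 niche libraries from 5 numbered experiments (1285 cells). All mice were C57BL/6 and labelled wild-type. The Nestin-GFP mice carry a fluorescent reporter named for the neural progenitor gene Nes, and the sources used here do not give the transgene's promoter. The number of mice per experiment and, except for the old library, their age are not given either. The p-values therefore cannot be read as covering the spread between mice. They rest on the spread left after cell class and experiment were fitted, with all classes in the same fit.

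Lecticans (Bcan, brevican; Ncan, neurocan; Vcan, versican) are proteoglycans that bind hyaluronan at one end and tenascins at the other. Link proteins of the Hapln family stabilise the binding to hyaluronan, and tenascin-R (Tnr) is a multimer that can crosslink lecticans. Together with chondroitin sulfate chains they form the diffuse matrix and the denser perineuronal and perinodal nets of the brain, and in neurogenic regions tenascin-C (Tnc) is known from the surroundings of neural stem cells. Cspg4, also called NG2, is a transmembrane proteoglycan by which oligodendrocyte precursor cells are commonly recognised. Cspg5, neuroglycan C, is a transmembrane proteoglycan of the nervous system.

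Cells were assigned to classes from marker genes that did not include the 9 genes or the genes of the matrix lists used further below. Some markers are themselves matrix genes, such as Matn4 in the OPC set and collagen genes in the fibroblast set. The classes are called "-like" since they rest on markers alone. The niche held 258 oligodendrocyte precursor cell-like (OPC-like) cells, 16 committed precursor-like, 66 mature oligodendrocyte-like, 42 neural stem cell-like, 227 astrocyte-like, 199 neuroblast-like and 290 microglia-like cells, beside rarer classes and 52 niche cells left unnamed. Values are given as CPM (counts scaled to a common total of 1000000 counts) per class and experiment, from a random set of UMIs that took no part in the class assignment, and a class entered with at least 5 cells in an experiment. OPC-like cells then had 4 experiments, neural stem cell-like cells 4, mature oligodendrocyte-like cells 3, committed precursor-like cells 1 and the astrocyte-like, neuroblast-like and microglia-like cells 5. The 37 sums of a class in an experiment held 5573 to 456823 counts, and the experiments had medians of 1943 to 12392 transcripts per cell. In the same UMIs, the 11 OPC markers together reached 17814 to 19704 CPM in OPC-like cells and 373 to 1839 CPM in astrocyte-like cells. Within the oligodendrocyte lineage they reached 10248 CPM in committed precursor-like cells and 3420 to 3896 CPM in mature oligodendrocyte-like cells. Gpr17 and Neu4 are in both the OPC and the committed precursor marker sets. The 13 neural stem cell markers reached 5190 to 8632 CPM in neural stem cell-like cells and 2517 to 4668 CPM in astrocyte-like cells. Neural stem cell-like cells also held 23328 to 45671 CPM of the 15 astrocyte markers, against 42401 to 58696 CPM in astrocyte-like cells, and the leading genes of their cluster included the stem cell markers Wnt8b and Lpar1 as well as Camk2a, Ddn and Adcy1, which are known from neurons. Labels state that experiment 2 is a resequencing of the original libraries.

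Link protein genes lie next to lectican genes in the mouse genome, and the sequences before 4 of them are shown because both neighbours of each pair were measured here and the paired genes had their counts in different cell classes. On GRCm38.p6 (mm10), Hapln2 (chr3:88020558-88027511, minus strand) and Bcan (chr3:87987531-88002175, minus strand) are 18382 bases apart. Hapln1 (chr13:89540529-89611832, plus strand) and Vcan (chr13:89655309-89743027, minus strand) are 43476 bases apart and their 3′ ends face each other. No protein-coding gene lies between the genes of either pair. Ncan has the same arrangement with Hapln4, at a distance of 2222 bases on chromosome 8. The starts used for Bcan, Vcan and Hapln1 are not the outermost ones. Their sequences lie inside the gene spans given above, for Hapln1 only in part. The 250 bases before a RefSeq transcription start of each gene, from GRCm38.p6 and written 5′ to 3′ on the gene's own strand, are as follows, with every CG dinucleotide in capitals.
Hapln2 promoter, chr3:88027512-88027761: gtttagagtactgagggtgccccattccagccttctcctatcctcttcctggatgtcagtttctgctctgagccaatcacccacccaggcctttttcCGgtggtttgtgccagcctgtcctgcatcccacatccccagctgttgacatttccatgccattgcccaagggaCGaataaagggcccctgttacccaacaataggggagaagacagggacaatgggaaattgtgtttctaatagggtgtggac
Bcan promoter, chr3:88000357-88000606: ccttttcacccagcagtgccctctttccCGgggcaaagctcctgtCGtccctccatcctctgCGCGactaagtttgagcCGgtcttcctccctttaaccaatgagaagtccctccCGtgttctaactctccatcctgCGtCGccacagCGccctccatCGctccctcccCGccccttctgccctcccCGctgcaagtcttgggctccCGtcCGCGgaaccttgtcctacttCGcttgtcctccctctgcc
Hapln1 promoter, chr13:89540386-89540635: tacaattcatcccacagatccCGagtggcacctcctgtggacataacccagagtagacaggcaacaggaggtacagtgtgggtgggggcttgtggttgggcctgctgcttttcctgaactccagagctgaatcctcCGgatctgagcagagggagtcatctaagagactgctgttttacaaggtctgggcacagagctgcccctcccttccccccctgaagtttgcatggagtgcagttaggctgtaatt
Vcan promoter, chr13:89742513-89742762: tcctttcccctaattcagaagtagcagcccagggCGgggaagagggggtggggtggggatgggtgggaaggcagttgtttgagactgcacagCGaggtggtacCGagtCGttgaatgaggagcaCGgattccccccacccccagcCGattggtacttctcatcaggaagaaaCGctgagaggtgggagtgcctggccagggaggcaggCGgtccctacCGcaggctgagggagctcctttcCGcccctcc
The link protein promoters held 2 CG dinucleotides each, and the Bcan and Vcan promoters held 16 and 10. The median over all mouse promoters of this length in the table was 6. Of the 32851 promoters, 18.8% held fewer CG dinucleotides than Hapln1 and Hapln2, 62.2% held fewer than Vcan and 74.6% held fewer than Bcan. The E-box CAGCTG, searched on both strands, occurred 1 time in the Hapln2 promoter and in no other of these 4, and 13% of all promoters held it. The letters ACAAAG, a core that SOX factors bind, were searched on both strands in the same way; they occurred in none of these 4 promoters, 1 time in that of Tnr and in 16.5% of all promoters.

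Transcripts of the 9 genes fell into distinct sources within the sort. By pooled counts, Cspg4 and Tnr lay almost entirely in OPC-like cells, Hapln2 in mature oligodendrocyte-like cells and Hapln1 mainly in astrocyte-like cells. Bcan and Cspg5 were shared by OPC-like, astrocyte-like and neural stem cell-like cells, Ncan by these and by neuroblast-like cells, and Tnc lay in neural stem cell-like and astrocyte-like cells. Of a gene's counts in named niche cells, OPC-like cells held 93.9% for Cspg4 (1305 of 1390 counts), 93.2% for Tnr (109 of 117), 78.1% for Vcan (774 of 991) and 71.2% for Cspg5 (1770 of 2486). The 52 unnamed niche cells are left out of these and the following shares. Mature oligodendrocyte-like cells held 96.5% of the Hapln2 counts (82 of 85), and astrocyte-like cells 76.9% of the Hapln1 counts (140 of 182). For Bcan the shares were 51.4% in OPC-like and 37.7% in astrocyte-like cells, for Ncan 38.5% in OPC-like, 17.4% in astrocyte-like and 33.6% in neuroblast-like cells, and for Tnc 48.1% in neural stem cell-like and 37% in astrocyte-like cells. These are pooled counts, to which large experiments add most. As a mean over the 5 experiments, Bcan had 39.3% in OPC-like (12.3% to 69.3%) and 48.3% in astrocyte-like cells (21.1% to 64.3%), the reverse of the pooled order. Tnc likewise had 38.3% in neural stem cell-like (0% to 75%) and 46.2% in astrocyte-like cells (23.9% to 75%). Ncan had 35% in OPC-like, 27.1% in astrocyte-like and 27% in neuroblast-like cells (3.73% to 67.2% in neuroblast-like cells), so no order of sources is read for these 3 genes. The OPC-like share of Cspg5 averaged 55.2% (19.7% to 83%) and that of Vcan 71.2% (12.1% to 94.3%). For Cspg4 this share averaged 87.1% (55.9% to 97.4%) and for Tnr 87% (55.6% to 100%). Committed precursor-like cells held up to 29.4% of Cspg4 and up to 33.3% of Tnr in an experiment. The mature oligodendrocyte-like share of Hapln2 averaged 86.5% over 4 experiments (50% to 100%), and the astrocyte-like share of Hapln1 76.9% (73.7% to 78.9%). These shares depend on how many cells of each class the sort gave and on their depth, and 2 of the genes have fewer than 100 counts.

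**Figure D1:**
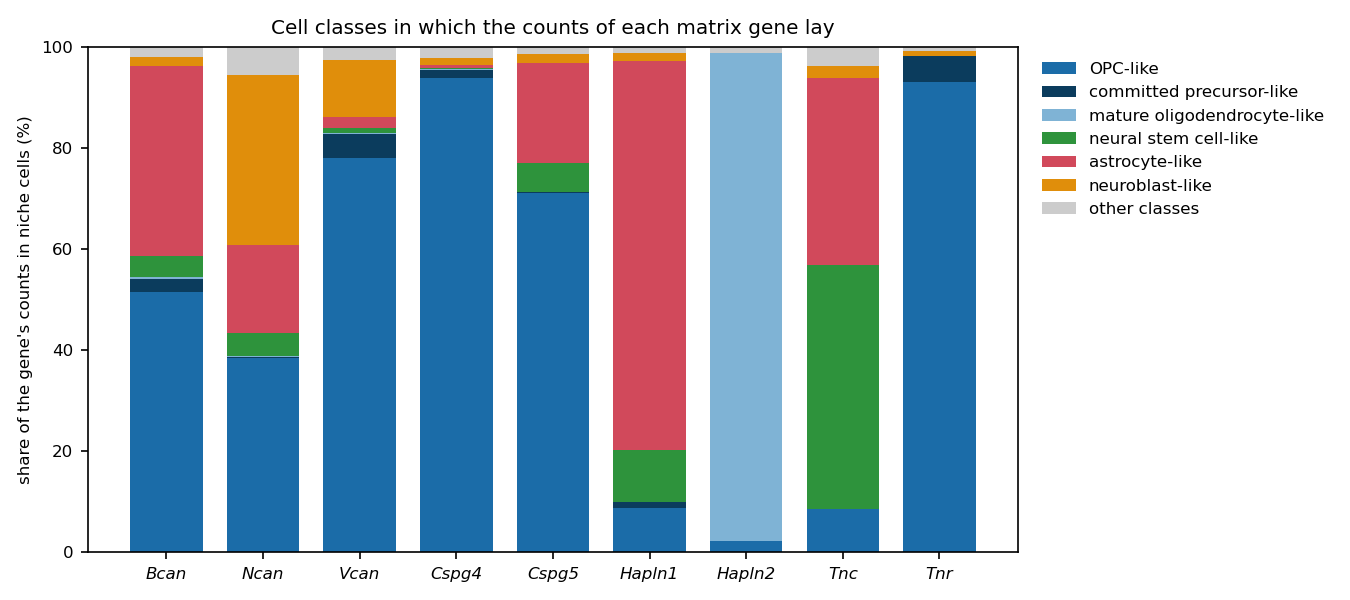
Share of each gene's counts in named niche cells (%, vertical axis) that lay in each cell class, pooled over the 5 niche experiments and set out by gene on the horizontal axis. OPC-like cells held 93.9% of the Cspg4 counts and mature oligodendrocyte-like cells 96.5% of the Hapln2 counts, whereas the Ncan counts were divided between OPC-like (38.5%), neuroblast-like (33.6%) and astrocyte-like cells (17.4%).

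Bcan, a lectican of the brain, had 1903, 2040, 2236 and 2215 CPM in OPC-like cells of experiments 1, 2, 3 and 5. In astrocyte-like cells of experiments 1 to 5 it had 3402, 3038, 2824, 2047 and 2806 CPM. Within each of the 4 shared experiments the OPC-like value was the lower one, with means of 2099 ± 157 CPM in OPC-like and 3018 ± 277 CPM in astrocyte-like cells (SD, n = 4 each). The log2 fold change, after scaling between libraries, was -0.85 ± 0.33 (SE; edgeR's quasi-likelihood test, adjusted p = 0.0442). This call was lost in 11 of 20 alternative settings, among them without the experiment block (adjusted p = 0.316), without experiments 1, 2, 3 or 5 in turn and with DESeq2 (0.0858). Neural stem cell-like cells had 1297, 570, 1253 and 415 CPM in experiments 1, 2, 3 and 5, all below the astrocyte-like cells of the same experiment. The log2 fold change of neural stem cell-like against astrocyte-like cells was -2.34 ± 0.37 (adjusted p = 1.91e-07), and it kept its side of the threshold in every alternative in which this comparison could be made. Mature oligodendrocyte-like cells had 47.7, 0 and 0 CPM (6 counts), and microglia-like cells 0 to 74.1 CPM (32 counts).

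Ncan, a lectican known from developing brain, had counts in OPC-like, astrocyte-like, neural stem cell-like and neuroblast-like cells. It had 335, 513, 463 and 352 CPM in OPC-like cells and 291, 509, 336, 328 and 427 CPM in astrocyte-like cells. The log2 fold change between these classes was -0.11 ± 0.33 (edgeR's quasi-likelihood test, adjusted p = 0.891), and its sign was positive in 4 of 20 alternative settings. Neuroblast-like cells had 306, 364, 233, 265 and 718 CPM, where the last value rests on 4 counts from 6 cells. Astrocyte-like against neuroblast-like cells gave 0.80 ± 0.33 (edgeR's quasi-likelihood test, adjusted p = 0.0497). The CPM values overlapped, with means of 378 ± 88.3 CPM in astrocyte-like and 377 ± 197 CPM in neuroblast-like cells (SD, n = 5 each). That call was lost in 17 of 20 alternatives, including each of the 5 that left out an experiment. Neural stem cell-like cells had 259, 265, 289 and 166 CPM, lower than astrocyte-like cells in 4 of 4 experiments, at -1.07 ± 0.42 on the log2 scale (adjusted p = 0.175). Microglia-like cells had 28.1 ± 35.8 CPM (SD, n = 5) and mature oligodendrocyte-like cells 1 count in all. Ncan was called higher than in microglia-like cells in each of the OPC-like (4.10 ± 0.48), astrocyte-like (4.20 ± 0.47) and neuroblast-like (3.41 ± 0.50) classes, with adjusted p = 2.52e-16, 7.75e-18 and 7.28e-11.

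Vcan, the large lectican that in the adult brain is known from oligodendrocyte precursors and nodes of Ranvier, had its highest level in OPC-like cells. It had 1236, 817, 1414 and 830 CPM in OPC-like cells, against 34.9, 65.2, 67.2 and 16.4 CPM in astrocyte-like cells of the same experiments. The classes did not overlap, and the log2 fold change was 4.33 ± 0.41 (edgeR's quasi-likelihood test, adjusted p = 6.78e-24). Against mature oligodendrocyte-like cells, which had 15.9, 0 and 0 CPM, it was 6.54 ± 0.70 (adjusted p = 1.29e-18). Neuroblast-like cells held a lower level of 61.2, 88.4, 54.8, 160 and 179 CPM, above microglia-like cells (39.1, 13.5, 29.6, 0 and 0 CPM) in 5 of 5 experiments, although the values of experiments 1 and 5 are 1 count each, from 8 and 6 cells. The log2 fold change of neuroblast-like against microglia-like cells was 1.78 ± 0.54 (adjusted p = 0.0035), but the call was lost without experiment 2 (adjusted p = 0.105), without experiment 4 (0.0619) and at a minimum of 2000 transcripts per cell (0.11). An antisense gene, Gm4117, overlaps Vcan, and whether counting used the strand is not stated, so reads of the pair cannot be told apart; Tnr has such a partner in Gm38039, and Cspg5 overlaps Gm43622, Tnc 8030451A03Rik and Hapln1 the pseudogene Gm8546 on the other strand, with the same limit.

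**Figure D2:**
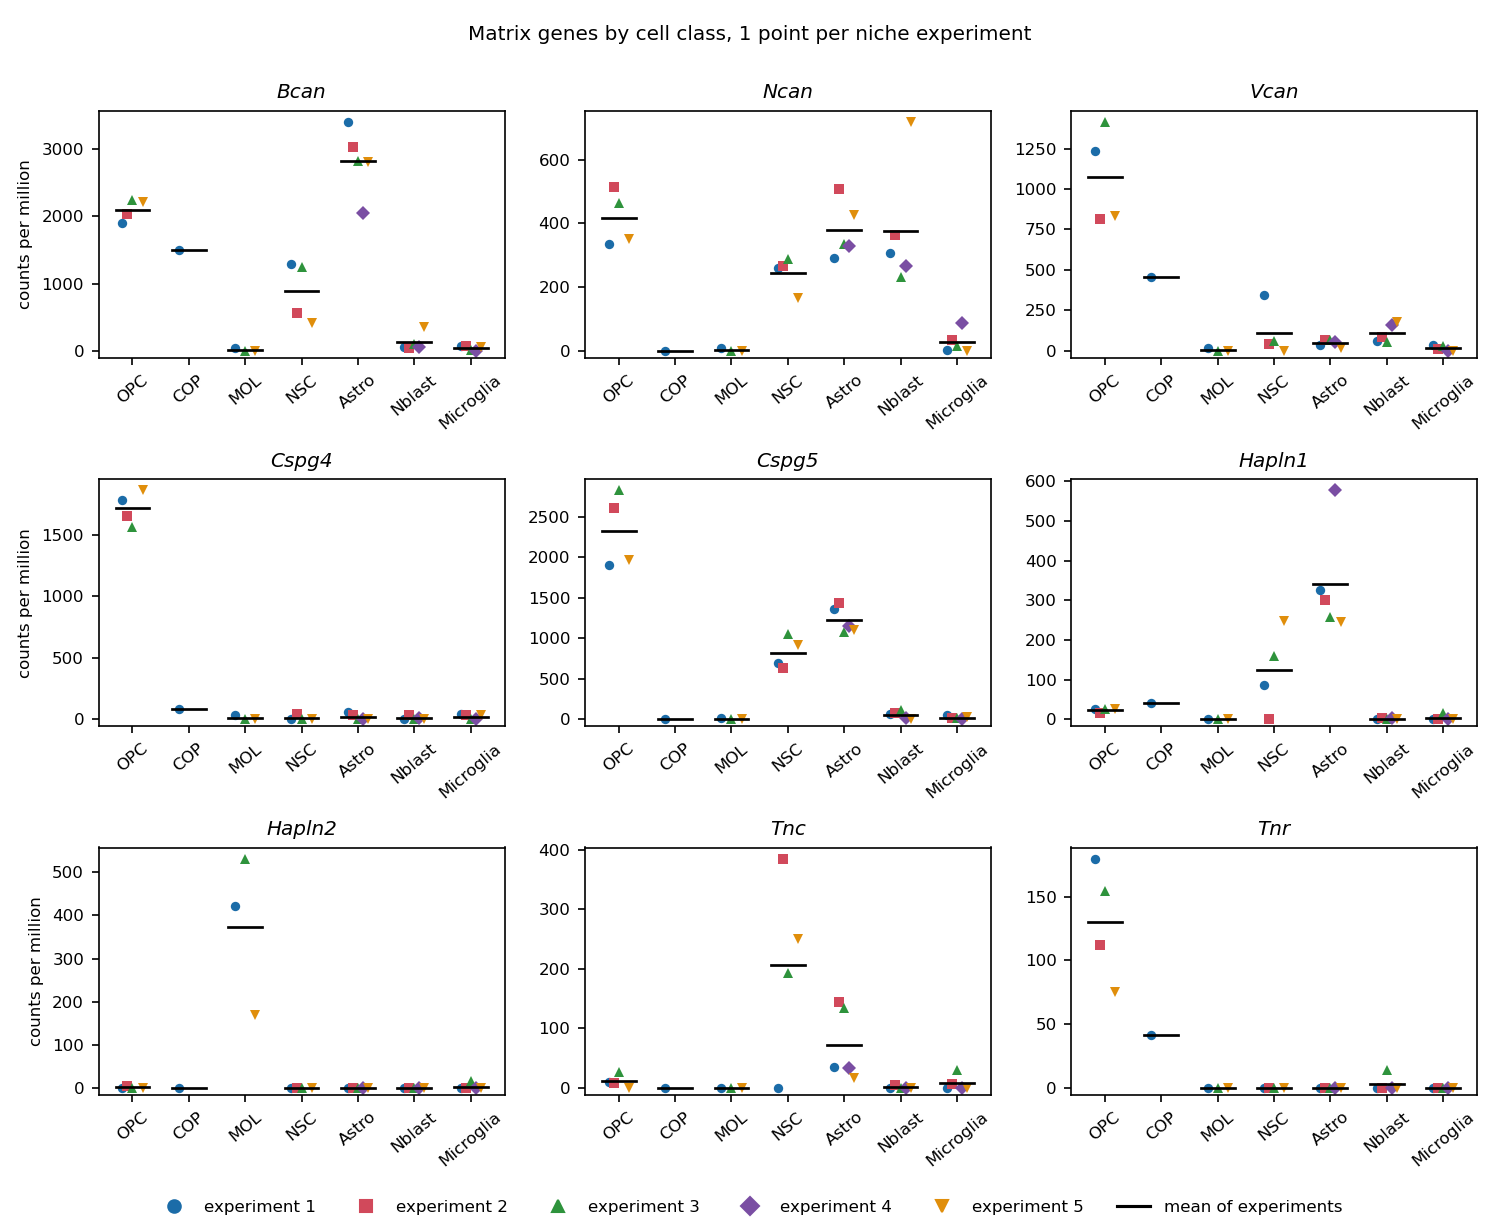
CPM (vertical axis, scaled for each gene) of the 9 genes in 7 cell classes, with 1 point per niche experiment and a bar at the mean (COP, committed precursor-like; MOL, mature oligodendrocyte-like; NSC, neural stem cell-like; Astro, astrocyte-like; Nblast, neuroblast-like). Cspg4 lay between 1568 and 1862 CPM in OPC-like cells and at or below 83 CPM in every other class drawn, while Bcan and Ncan were spread over several classes.

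Cspg4 was counted mainly in OPC-like cells. It had 1788, 1657, 1568 and 1862 CPM in OPC-like cells, against 58.3, 39.1, 0 and 0 CPM in astrocyte-like cells of the same experiments. The log2 fold change was 5.91 ± 0.48 (edgeR's quasi-likelihood test, adjusted p = 8.48e-33) and stayed past the threshold in all 20 alternatives, between 4.79 and 6.84. Against mature oligodendrocyte-like cells (31.8, 0 and 0 CPM) it was 6.28 ± 0.64 (adjusted p = 1.08e-20). Cspg4 is also known from pericytes, and no cell class here was named from the mural marker set. In committed precursor-like cells of experiment 1, the stage in which precursors leave the OPC state, Cspg4 had 83 CPM (2 counts in 8 cells).

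Cspg5 had 1907, 2609, 2828 and 1963 CPM in OPC-like cells, against 1363, 1434, 1076 and 1099 CPM in astrocyte-like cells of the same experiments. The OPC-like values were the higher ones in 4 of 4 experiments and did not overlap the others, but after scaling between libraries the log2 fold change was 0.44 ± 0.33 and did not pass (edgeR's quasi-likelihood test, adjusted p = 0.398). It passed where this pair of classes was fitted alone (0.71, adjusted p = 0.00536). Neural stem cell-like cells had 692, 636, 1060 and 913 CPM, below astrocyte-like cells in 4 of 4 experiments, at -1.27 ± 0.37 (adjusted p = 0.0265). That call was lost in 12 of 17 alternatives, among them without the experiment block (adjusted p = 0.331), without experiments 1 to 4 in turn and with DESeq2 (0.148). Mature oligodendrocyte-like cells had 15.9, 0 and 0 CPM, and the log2 fold change of OPC-like against these cells was 7.36 ± 0.71 (adjusted p = 3.37e-23).

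The link proteins Hapln1 and Hapln2, which hold lecticans to hyaluronan, were counted in different lineages. Hapln1 had 326, 300, 258, 577 and 246 CPM in astrocyte-like cells, against 0, 2.60, 0, 4.38 and 0 CPM in neuroblast-like cells. The log2 fold change was 6.62 ± 0.60 (edgeR's quasi-likelihood test, adjusted p = 1.3e-26). OPC-like cells had 27.1, 16, 25.7 and 25.2 CPM, at -3.81 ± 0.49 against astrocyte-like cells (adjusted p = 3.79e-13). Neural stem cell-like cells had 86.5, 0, 161 and 249 CPM from 9 counts in all, at -2.25 ± 0.56 against astrocyte-like cells (adjusted p = 0.00496). That call was lost without experiment 1 (adjusted p = 0.0972), without experiment 2 (0.619), at a finer clustering (0.189) and with DESeq2 (0.0802), and in experiment 5 the neural stem cell-like value was the higher one. Hapln1 was higher in OPC-like than in microglia-like cells (16 counts against 1 count, 2.81 ± 0.99, adjusted p = 0.013), a call that was lost without experiment 1 (0.18) or experiment 2 (0.0672) and without second-class cells (0.0913), and whose sign reversed where cells with 1 UMI of another class's markers were left out (-1.37).

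Hapln2, also called Bral1 and known from nodes of Ranvier of myelinated axons, had 421, 531 and 169 CPM in mature oligodendrocyte-like cells of experiments 1, 3 and 5 (53, 25 and 2 counts). In the other classes it reached at most 14.8 CPM (1 count). OPC-like cells of the same experiments had no Hapln2 count among them, and experiment 2, where only 2 mature oligodendrocyte-like cells were found, had 2 counts in OPC-like cells. Hapln2 had no count in niche cells of experiment 4, which has no mature oligodendrocyte-like cells, and for that reason it was not in the table of genes tested. Where that requirement was dropped, an alternative chosen after seeing the data, OPC-like cells (0 counts) were lower than mature oligodendrocyte-like cells (80 counts) with an adjusted p of 1.05e-10 in edgeR's quasi-likelihood test. Mature oligodendrocyte-like cells (80 counts) were then higher than microglia-like cells (1 count) with an adjusted p of 3.51e-11, at a ratio of pooled levels of 153 with an exact 95% interval of 26.8 to 6136.

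Of the tenascins, Tnc had 0, 384, 193 and 249 CPM in neural stem cell-like cells of experiments 1, 2, 3 and 5, from 38 counts. Astrocyte-like cells of experiments 1 to 5 had 34.9, 143, 134, 33.9 and 16.4 CPM, from 30 counts. Of these astrocyte-like cells, 40 in experiment 1, 7 in experiment 2, 14 in experiment 3 and 8 in experiment 5 came from a first-round cluster that was named neural stem cell-like and led by Tnc, and were renamed in the second round; the part of this uneven make-up in the Tnc values was not tested. Neural stem cell-like values were the higher ones in 3 of 4 experiments, but the classes overlapped and the log2 fold change of 1.0 ± 0.67 did not pass (edgeR's quasi-likelihood test, adjusted p = 0.556). With class names taken from the first round of clustering alone, a setting chosen after seeing the data, it was 2.53 (adjusted p = 0.0207). Astrocyte-like cells exceeded neuroblast-like cells in 5 of 5 experiments (4.75 ± 0.82, adjusted p = 8.72e-08) and microglia-like cells in 5 of 5 (3.39 ± 0.79, adjusted p = 8.59e-05). OPC-like cells had 10.2, 7.98, 25.7 and 0 CPM (7 counts), at -3.04 ± 0.75 against astrocyte-like cells (adjusted p = 0.000443), a call that was lost without experiment 2 (0.168) and with the first-round names (0.0766).

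Tnr had 180, 112, 154 and 75.5 CPM in OPC-like cells, from 53, 42, 6 and 3 counts. Among the UMIs compared, no Tnr count was found in astrocyte-like, neural stem cell-like, mature oligodendrocyte-like or microglia-like cells of any niche experiment. The mean was 130 ± 46 CPM in OPC-like cells (SD, n = 4), and 3 counts over the group, the limit that a count of 0 allows, correspond to 9.59 CPM in astrocyte-like and 5.97 CPM in microglia-like cells. In the 3 experiments shared with mature oligodendrocyte-like cells the OPC-like mean was 136 ± 54.2 CPM, and the limit in mature oligodendrocyte-like cells was 16.2 CPM. By counts pooled over experiments, in which large experiments weigh most, the OPC-like level was 14.5 times the limit in astrocyte-like cells. It was 10.2 times the limit in mature oligodendrocyte-like cells and 23.2 times that in microglia-like cells. These ratios leave out the counting error of the OPC-like value, so they are not lower bounds. Tnr fell below the filter on low counts. Without that filter, the adjusted p of OPC-like cells was 1.46e-08 against astrocyte-like, 2.07e-05 against mature oligodendrocyte-like and 1.49e-10 against microglia-like cells in edgeR's quasi-likelihood test.

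Across the comparisons, 7 of the 9 genes could be tested and Hapln2 and Tnr could not. OPC-like against astrocyte-like cells had 2 of 7 higher (Vcan and Cspg4) and 3 lower (Bcan, Hapln1 and Tnc), while 21.9% of all 6077 genes tested were called, 10.4% higher and 11.6% lower. The median log2 fold change of the 7 was -0.11, against 0.08 for all genes tested. OPC-like against mature oligodendrocyte-like cells had 5 of 7 higher (Bcan, Ncan, Vcan, Cspg4 and Cspg5), where 13.1% of all genes were called higher, 8.8% lower and 21.9% in either direction. The median log2 fold change of the 7 was 5.90, against 0.39 for all genes tested. Neural stem cell-like against astrocyte-like cells had 3 of 7 lower (Bcan, Cspg5 and Hapln1), where 2.72% of all genes were called lower, 0.51% higher and 3.23% in either direction. The median of the 7 was -1.07, against -0.26 for all genes. Only Bcan among these 3 was also called by DESeq2.

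Astrocyte-like against neuroblast-like cells had 5 of 7 higher (Bcan, Ncan, Cspg5, Hapln1 and Tnc), where 20.9% of all genes were called higher, 12.9% lower and 33.8% in either direction. Against microglia-like cells, astrocyte-like cells had 5 of 7 higher (24.1% of all genes, or 42.6% in either direction) and OPC-like cells 6 of 7 higher (24.6%, or 42.3% in either direction). Neuroblast-like cells had 2 of 7 higher than microglia-like cells, Ncan and Vcan, where 19.7% of all genes were called higher, 20.2% lower and 39.9% in either direction. Mature oligodendrocyte-like against microglia-like cells had 0 of 7 called by edgeR or by DESeq2, and 0 of 7 at an unadjusted p under 0.05 in either, where 31.8% of all genes were called. Microglia-like cells enter 4 of these comparisons and astrocyte-like cells 4, so the comparisons share samples. Fold changes are not given for 17 pairs of a gene and a comparison in which both classes had under 100 CPM and no setting gave a call. That minimum was chosen after seeing the values.

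**Figure D3:**
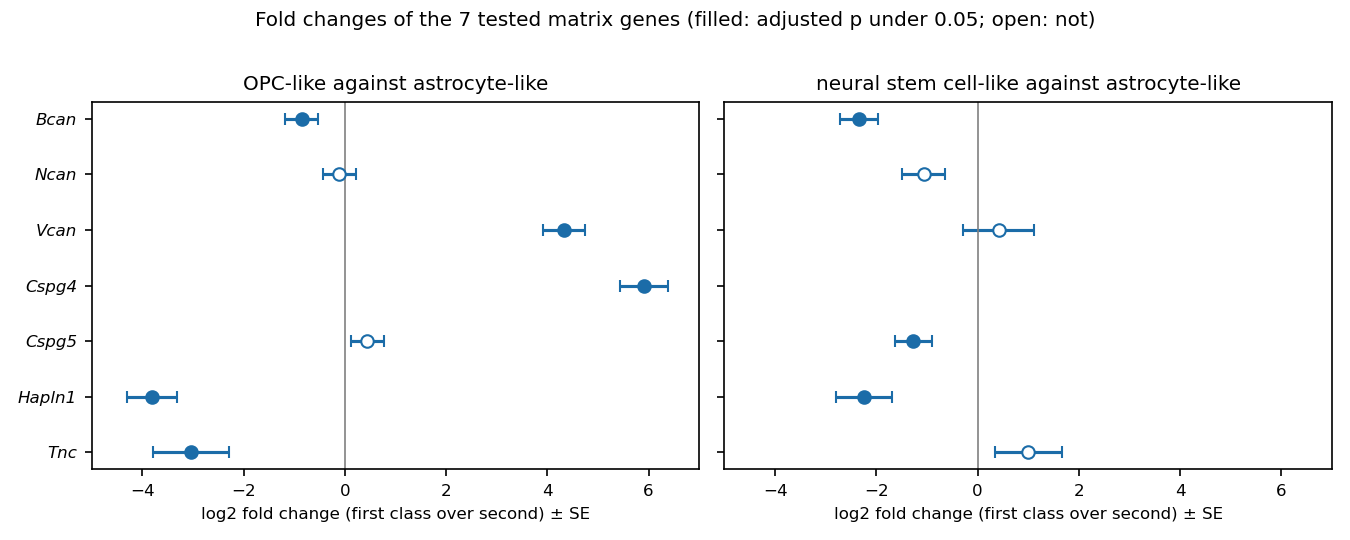
Log2 fold changes (horizontal axis, first class over second, with SE) of the genes tested, for OPC-like against astrocyte-like cells and for neural stem cell-like against astrocyte-like cells, with filled points at an adjusted p under 0.05. Cspg4 and Vcan lie at 5.91 and 4.33 on the left and Hapln1 at -3.81, and Bcan has the largest fall on the right at -2.34; Cspg4 is not drawn on the right, where both classes had under 100 CPM.

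Committed precursor-like cells had at least 5 cells in experiment 1 alone, so they were compared with OPC-like cells of that experiment without a test. OPC-like cells had 1903 CPM of Bcan, against 1494 CPM in committed precursor-like cells (36 counts), a ratio of 1.27 with an exact 95% interval of 0.909 to 1.84. Vcan had 1236 against 456 CPM, a ratio of 2.71 (1.5 to 5.47), and Cspg4 1788 against 83 CPM, a ratio of 21.6 (5.94 to 178). Among the UMIs compared, Cspg5 and Ncan had no count in the 8 committed precursor-like cells of experiment 1. The OPC-like level of that experiment was 15.3 times the limit that a count of 0 allows for Cspg5, and 2.69 times that limit for Ncan. Neither gene was without UMIs in the class: at full depth Ncan was seen in 5 and Cspg5 in 2 of the 16 committed precursor-like cells of all niche experiments. The intervals and limits cover counting error only, and the ratios to a limit leave out the counting error of the OPC-like value.

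Single cells were compared by the share with at least 1 UMI of a gene. Cells of all niche experiments were pooled for this, so the intervals do not cover the spread between experiments. Every cell was thinned to 800 UMIs, since median depth differed between classes, from 2166 UMIs per cell in astrocyte-like to 8103 in neuroblast-like cells. At that depth Cspg5 was seen in 80.2% of OPC-like cells (exact 95% interval 74.8% to 84.9%; 98.8% of cells at full depth), Bcan in 71.7%, Cspg4 in 68.6%, Vcan in 49.6%, Ncan in 24.0% and Tnr in 8.14% (43.8% at full depth). Bcan was seen in 83.7% of astrocyte-like cells, Cspg5 in 63.9%, Ncan in 26%, Hapln1 in 17.6% (41% at full depth) and Tnc in 4.85%. In neural stem cell-like cells Bcan was seen in 47.6%, Cspg5 in 45.2% and Tnc in 19% (8.60% to 34.1%; 57.1% at full depth). Hapln2 was seen in 24.2% of mature oligodendrocyte-like cells (72.7% at full depth). In microglia-like cells, which should lack these genes and had a median of 3057 UMIs, the thinned shares of the 9 genes were 0% to 4.83%, and Bcan in neuroblast-like cells (6.53%, 3.52% to 10.9%) overlapped that range.

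**Figure D4:**
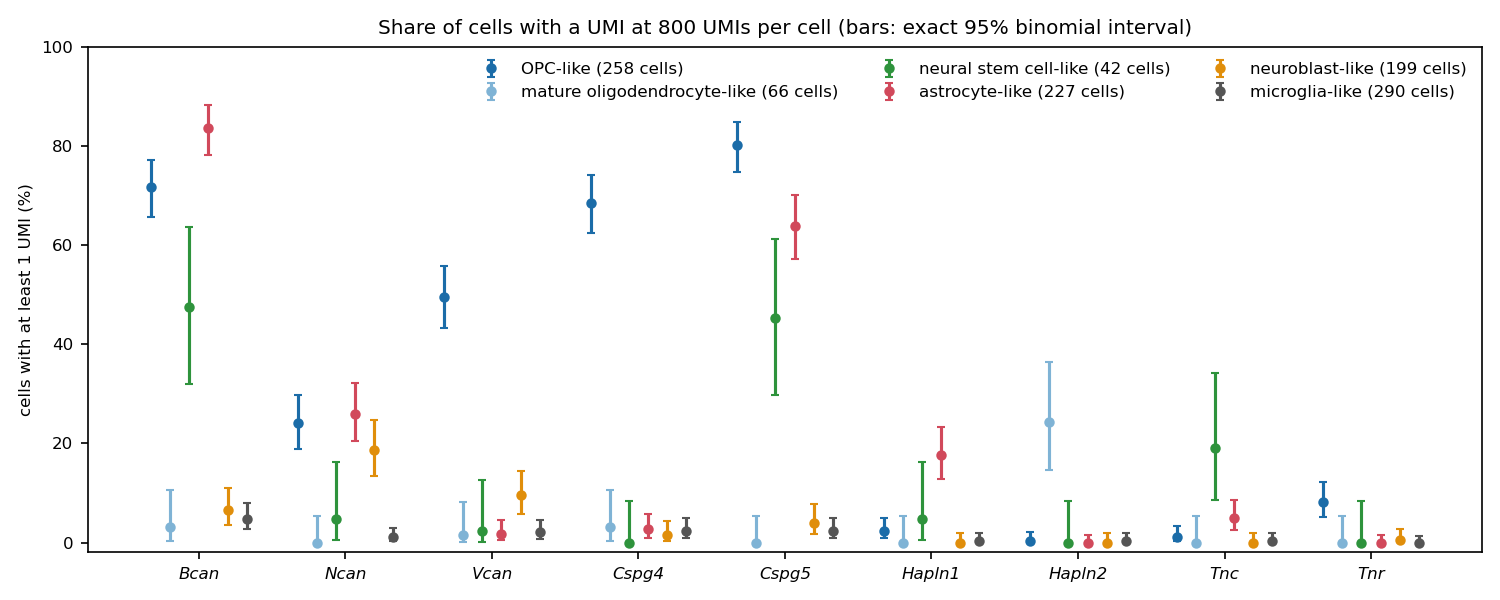
Share of niche cells with at least 1 UMI of each gene (%, vertical axis) after thinning to 800 UMIs per cell, by gene and cell class, with exact 95% binomial intervals. Cells of all experiments were pooled, and the intervals do not cover the spread between experiments. Cspg4 was seen in 68.6% of OPC-like cells and in at most 3.03% of the cells of the other classes drawn, whereas Bcan was seen in 71.7% of OPC-like, 47.6% of neural stem cell-like and 83.7% of astrocyte-like cells.

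At full depth a median of 5 of the 9 genes was seen per OPC-like cell, 4 per neural stem cell-like, 3 per astrocyte-like, 2 per neuroblast-like, 1 per mature oligodendrocyte-like and 0 per microglia-like cell. Median depth differed between these classes, and its part in the medians was not tested. At least 3 of the genes were seen in 98.4% of OPC-like cells, 81% of neural stem cell-like cells and 3.45% of microglia-like cells.

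The Nestin-GFP and old libraries were each 1 library, so their values have no replicate check and carry exact 95% Poisson intervals. These intervals are set against the point values of the niche experiments, whose own counting error is left out. A value called above or below that range is therefore not shown to differ from every niche experiment. In Nestin-GFP OPC-like cells (67 cells) Vcan had 1646 CPM (1483 to 1821), above the 817 to 1414 CPM of the niche experiments, and Tnr had 334 CPM (263 to 417), above 75.5 to 180 CPM. In old OPC-like cells (21 cells) Tnr had 295 CPM (191 to 436, 25 counts), also above that range of point values. Vcan had 1346 CPM (1110 to 1617) there, within the range. The niche values of Tnr rest on 104 counts in all, and the highest of them, 180 CPM in experiment 1, on 53 counts. Most OPC-like cells of the Nestin-GFP library (59 of 67), the old library (19 of 21) and experiment 2 (69 of 82) lay in another first-round cluster than nearly all of those of experiments 1, 3 and 5. The cluster of experiments 1, 3 and 5 was led by Bmp4 and Gpr17, and the other cluster by Matn4 and Cspg4. Bmp4 and Gpr17 are also in the marker set of committed precursors, the next stage, and the comparison with committed precursor-like cells of experiment 1 given above used OPC-like cells of that cluster. Experiment 2 had the lowest Vcan level of the niche experiments and 112 CPM of Tnr; the part of this cluster difference in the values was not tested.

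In Nestin-GFP astrocyte-like cells (88 cells) Hapln1 had 156 CPM (107 to 220), below the 246 to 577 CPM of the niche experiments, and Bcan had 2927 CPM, within 2047 to 3402 CPM. In Nestin-GFP mature oligodendrocyte-like cells (92 cells) Hapln2 had 308 CPM (251 to 373), within the niche range of 169 to 531 CPM. There Bcan had 95.6 CPM (65.4 to 135), against up to 47.7 CPM in the niche. Ncan had 53.8 CPM (31.9 to 85), against up to 7.95 CPM, and Cspg5 80.7 CPM (53.2 to 117), against up to 15.9 CPM. All 3 lay above the niche point values, but these rest on only 6, 1 and 2 counts over 3 experiments, so a difference is not shown. In the old library, mature oligodendrocyte-like cells (5 cells) had 401 CPM of Hapln2 (161 to 826), and 229 CPM of Ncan from 4 counts. The old astrocyte-like cells (7 cells, 6540 counts) allow no statement on genes below about 459 CPM, the limit of 3 counts.

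**Figure D5:**
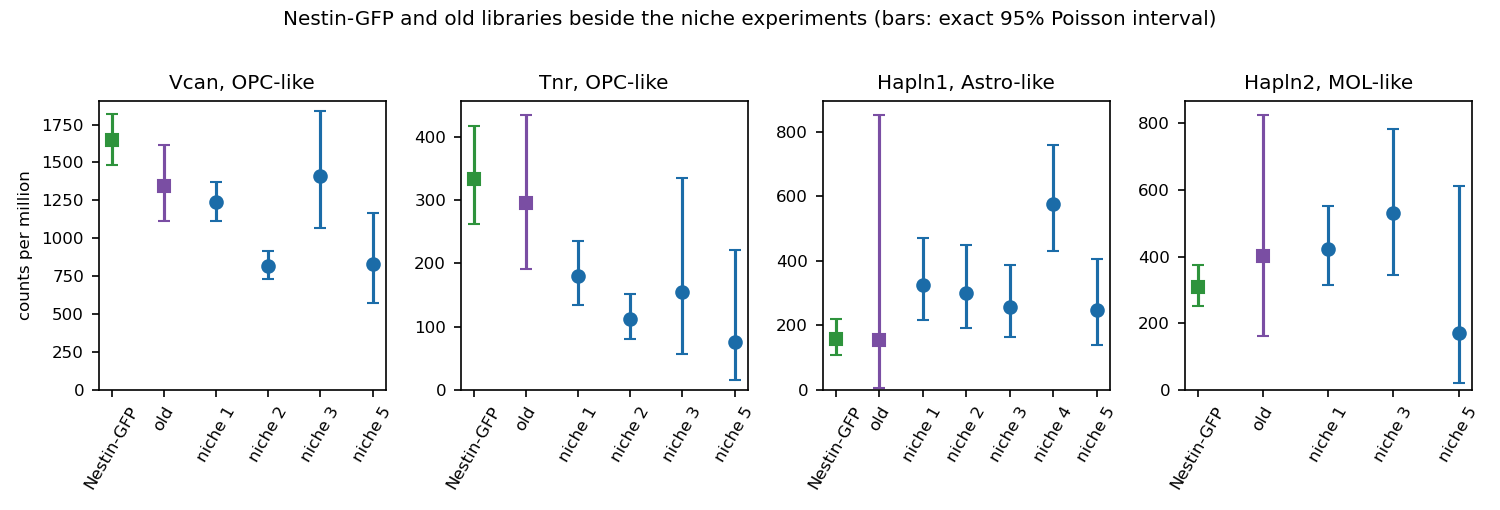
CPM (vertical axis) of Vcan and Tnr in OPC-like, Hapln1 in astrocyte-like and Hapln2 in mature oligodendrocyte-like cells (MOL), in the Nestin-GFP library, the old library and the niche experiments with at least 5 cells of the class, with exact 95% Poisson intervals. Tnr in OPC-like cells was at 334 CPM in the Nestin-GFP and 295 CPM in the old library. Both lay above the point values of the niche experiments (75.5 to 180 CPM), which have intervals of their own.

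Other genes of the same matrix were taken as lists of 60 genes, of which 56 are in the files and 29 could be tested. Of the relatives Acan, Hapln3, Hapln4, Tnxb and Tnn, 4 are in the files and none passed the filter on low counts. In OPC-like against astrocyte-like cells 11 of 29 were called higher and 4 lower, where 10.4% of all genes were higher and 11.6% lower, with a median log2 fold change of 0.66, against 0.08 for all genes tested. Among genes of chondroitin sulfate synthesis, 3 of 6 were higher (median 2.20), the sulfotransferases Chst11 (256.1 ± 73.7 CPM in OPC-like and 24.9 ± 7.12 CPM in astrocyte-like cells, SD, n = 4 each; 3.19 ± 0.53, adjusted p = 3.97e-08 in edgeR's quasi-likelihood test), Chst3 and Ust. Ugdh, which makes the UDP-glucuronate needed for hyaluronan and chondroitin sulfate, was higher as well (304 ± 75.7 against 35.8 ± 22.1 CPM). The hyaluronidase Hyal1 (8.83 ± 15.5 against 35.5 ± 25 CPM) and the hyaluronan receptor Cd44 (0 against 14.2 ± 17 CPM) were called lower. Both rest on few counts, since 3 counts over the astrocyte-like cells correspond to 9.59 CPM, so no fold is given.

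Of 9 receptors and partners, 4 were higher in OPC-like than in astrocyte-like cells (median 0.66). Among them were Cntn1, a contactin that binds Ptprz1 and tenascin-R (1297 ± 312 against 88.6 ± 10.4 CPM), the syndecan Sdc3 (993 ± 227 against 118 ± 33.1 CPM) and the integrin subunit Itgb1 (283 ± 6.31 against 97 ± 27.8 CPM). Of 9 proteases and inhibitors, Mmp15, Mmp2 and Adamts5 were higher, and the metalloprotease inhibitor Timp4 (145 ± 75.8 against 376 ± 69.8 CPM) and Adamts1 were lower. In OPC-like against mature oligodendrocyte-like cells 17 of 29 were higher and 1 lower (median 3.57, against 0.39 for all genes), beside 13.1% and 8.8% of all genes. The 1 that was lower was Adamts4, an aggrecanase that cleaves brevican and versican, at 9.52 ± 13.7 CPM in OPC-like and 120 ± 80.5 CPM in mature oligodendrocyte-like cells (SD, n = 3 each; edgeR's quasi-likelihood test, adjusted p = 0.00086); the OPC-like value rests on 2 counts, so no fold is given.

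In neural stem cell-like against astrocyte-like cells 1 of 29 passed the test, a share near the 3.23% of all genes. This was Cntn1, at 21.6 ± 43.2 CPM in neural stem cell-like and 88.6 ± 10.4 CPM in astrocyte-like cells (SD, n = 4 each), which was lower (edgeR's quasi-likelihood test, adjusted p = 0.0335). The neural stem cell-like value rests on 1 count, at 86.5 CPM in 1 experiment, with 0 in the other 3, and lies within the 78.2 to 101 CPM of astrocyte-like cells, so no fold is given. In astrocyte-like against neuroblast-like cells 11 of 29 were higher and 2 lower, where 20.9% of all genes were higher and 12.9% lower (median 0.86, against 0.08 for all genes). The inhibitors Timp4 (364 ± 66 against 5.18 ± 5.79 CPM) and Timp3 and the integrin subunit Itgav were among those higher in astrocyte-like cells. The 2 lower were Ptprs, a receptor for chondroitin sulfate proteoglycans (235 ± 46.1 CPM in astrocyte-like and 993 ± 186 CPM in neuroblast-like cells, SD, n = 5 each; -1.54 ± 0.33), and the cell surface hyaluronidase Tmem2. Against microglia-like cells, 18 of 29 were higher and 4 lower in OPC-like cells, where 24.6% of all genes were higher and 17.6% lower. In astrocyte-like cells 10 of 29 were higher and 6 lower, where 24.1% and 18.4% of all genes were. Mature oligodendrocyte-like cells had 2 of 29 higher and 4 lower, beside 15.5% and 16.4% of all genes, and neuroblast-like cells 6 higher and 8 lower, beside 19.7% and 20.2%. The counts of these last 2 classes were near or below the shares over all genes.

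The genes most like each member across the 37 sums, by Pearson correlation of log2(CPM + 10) among 5959 genes, are given as a description, since the sums share experiments and classes. Tnr was most like Elfn1 (r = 0.963), Cntn6 (0.930) and Scel (0.921), and Hapln2 most like Nkain2 (0.961), Pls1 (0.937) and Adamts4 (0.924). Hapln1 was most like the astrocyte gene Aldh1l1 (0.923), Dio2 (0.894) and Lsamp (0.868). Bcan was most like Tril (0.895), Cyp2j9 and Scrg1, Cspg4 like 1700086L19Rik (0.895), Sstr1 and Cdo1, and Cspg5 like Ntm (0.881), Ednrb and Gpr37l1. The lowest best values were those of Ncan (Ppp2r2b, 0.853; Mtss1l, Gpm6a), Tnc (Ass1, 0.850; Ppp1r3c, Mfap3l) and Vcan (Ampd3, 0.832; Astn1, Lrrc4).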

How the data were processed

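For every well and gene the authors deposited an estimated count, that is, UMIs corrected for saturation. No label states the correction: it was read from the values, which inverted to whole UMI numbers within 0.05 for 99.3% to 100% of them (pool of 256 UMIs in 28 libraries, 4096 in 5). Per the submitters' processing notes, reads were aligned with BWA 0.6.2-r126 and the build was mm10. The annotation, counting tool and strand setting are not given in these sources. Each cell's UMIs were divided at random into 2 sets. One served for clustering; for the other, the estimated counts were scaled to the UMIs held out, summed by class and experiment and rounded to whole numbers for testing. Wells needed 1000 transcripts without spike-ins and mitochondrial rows; 1738 wells passed, columns are numbered wells, so no barcodes were compared between libraries, no doublet caller was run, and 385 cells carried at least 3 markers of an unrelated class at 2 UMIs or more, which an alternative leaves out. Rows naming no gene held at most 0.0183% of a library and were left out.

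Cells were clustered in scanpy 1.11.5 (2000 variable genes, 30 components, 15 neighbours, Leiden resolution 1) and named at a marker score of 0.5 with at least 3 markers in 10% of cells. Clustering was set up in several steps after the files were seen, judged by marker scores and cell counts: first all genes, then genes listed in every group, then a second round, which was centred within experiment because the uncentred one left too few neural stem cell-like sums for a test. That contrast is testable for this reason. The naming thresholds, the restriction to the 12456 genes listed in every niche experiment, and the change of the second-class rule from 1 UMI (942 cells) to 2 UMIs were also set after seeing the data. The 9 genes and the matrix lists took no part in clustering; they and the tests were chosen with earlier results of these data known.

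Sums were tested in 1 fit with class and experiment as terms (edgeR 4.0.16 in R 4.3.3, TMM, filterByExpr, quasi-likelihood test, Benjamini-Hochberg over 6077 genes, threshold 0.05). The experiment number comes from the labels, so it was a block; deviations of classes from their means correlated at 0.023 to 0.407 within an experiment. DESeq2 1.42.0 and the other alternatives are in the closing section. In simulated data the fit recovered 46.7% of 4-fold changes in neural stem cell-like against astrocyte-like cells and 86.4% in OPC-like against astrocyte-like cells, but only 3.19% and 10.2% of 2-fold changes, so differences of that size that did not pass are not shown to be absent. The share of calls that were false was 6.12% and 1.16% in these comparisons. It was 8% in OPC-like against mature oligodendrocyte-like cells, above the threshold of 0.05. Each of these shares came from 1 simulated data set, so whether the threshold was kept in every comparison is not shown. Intervals are exact and cover counting error only. Genes named are the 9 members, up to 3 called genes per matrix list and direction, and the 3 genes most like each member.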

Additional observations from a re-analysis of the deposited data

Results flagged for a closer look

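A single experiment stood apart from the other 4 in 4 of the 34 combinations of a gene and a class that were examined with 4 or 5 experiments. The rule was Dixon's gap test. Its chance rate of about 1 in 20 holds for normal values of equal precision. The sums here differ in depth and some rest on few counts, so no excess over chance is read from the 4. Hapln1 in astrocyte-like cells had 577 CPM in experiment 4 (51 counts from 14 cells), against 246 to 326 CPM in the others. Bcan in neuroblast-like cells had 359 CPM in experiment 5 (2 counts from 6 cells), against 41.6 to 110 CPM. Ncan in neuroblast-like cells had 718 CPM in the same 6 cells (4 counts), against 233 to 364 CPM. Cspg4 in neuroblast-like cells had 36.4 CPM in experiment 2 (14 counts from 93 cells), against 0 to 8.76 CPM.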

How the results depend on the processing

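Of 749 alternative values of the genes' fold changes, 676 kept their direction and side of the threshold, 52 kept the direction but lost the call, 5 gained one and 16 reversed. For Ncan in OPC-like against astrocyte-like cells, leaving out 1 experiment gave -0.18 to 0.059, a minimum of 2000 transcripts 0.085 and resolution 1.5 0.013. For Vcan in neural stem cell-like against astrocyte-like cells, leaving out 1 experiment gave -0.28 to 1.11, all counts -0.12, a second seed -0.56 and first-round names -0.50. For Bcan in neuroblast-like against microglia-like cells, leaving out 1 experiment gave -0.29 to 0.68, all counts -0.021, a second seed -0.36, 2000 transcripts -0.23, resolution 1.5 -0.0052 and 10 cells per sum -0.060. Hapln1 in OPC-like against microglia-like cells turned to -1.37 without cells carrying 1 UMI of another class. A further 33 sign changes fell in the 17 pairs whose folds are not given because both classes were under 100 CPM, a minimum chosen after seeing these values. The causes were not tested.

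With each pair fitted alone, the counts of genes called were 833 (OPC-like against astrocyte-like), 525 (OPC-like against mature oligodendrocyte-like), 1089 (astrocyte-like against neuroblast-like), and, against microglia-like cells, 1161 for astrocyte-like, 1590 for OPC-like, 871 for mature oligodendrocyte-like and 855 for neuroblast-like cells. Without cells carrying 1 UMI of another class, an alternative chosen after seeing the data, they were 320, 370, 978, 1295, 762, 956 and 1010 in the same order. With all counts tested, 2057, 2037 and 2941 genes were called in OPC-like against astrocyte-like, OPC-like against mature oligodendrocyte-like and mature oligodendrocyte-like against microglia-like cells. In neural stem cell-like against astrocyte-like cells, 196 genes became 83 with no replicate block, 107 at 2000 transcripts, 101 at resolution 1.5, 128 without second-class cells, 81 with first-round names and 103 with DESeq2, and this comparison could not be fitted with the uncentred second round, with 10 cells per sum or without cells carrying 1 UMI of another class.

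Leaving out 1 experiment gave 927 to 1341 genes in OPC-like against astrocyte-like, 712 to 1371 in OPC-like against mature oligodendrocyte-like, 26 to 177 in neural stem cell-like against astrocyte-like and 1398 to 2238 in astrocyte-like against neuroblast-like cells. Against microglia-like cells it gave 2115 to 2649 for astrocyte-like, 1858 to 2653 for OPC-like, 1206 to 1974 for mature oligodendrocyte-like and 1635 to 2590 for neuroblast-like cells. The lowest values came without experiment 1 for 712 and 1206, and without experiment 2 for 26; without experiment 1 the neural stem cell-like comparison called 86, without experiment 3 it called 80, and without experiment 5 its count also fell by more than 1.5 times within the range given. Without the replicate block the other counts stayed within 1.5 times. DESeq2 moved the share of calls that were higher in astrocyte-like than in neuroblast-like cells to 79.8%, against 61.8%, and than in microglia-like cells to 67.2%, against 56.7%, with medians of all genes at 0.48, against 0.08, and at 0.44, against 0.16. Depth limits Tnc, Tnr and Hapln2, which have 81 to 117 counts each.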
